A study of Danio rerio with 63 samples.

Results

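Genes of the planar polarity and noncanonical Wnt core were sought by 10 symbols in a table of 32057 zebrafish genes: wnt5b, wnt11, wnt11f2, vangl2, prickle1a, prickle1b, ror2, fzd7a, fzd7b and gpc4. Of the 10 symbols, 9 had a row, and 7 of those rows held enough reads to be tested. The reads came from polyadenylated RNA of blastoderm explants, pieces of tissue cut from Danio rerio embryos at about 3 hours post fertilization (hpf) and kept in explant medium until collection. In the ndr2 condition, embryos had received 10 pg of mRNA encoding ndr2, a Nodal ligand, at the 1-cell stage. In the CA-acvr1b* condition they had received 0.5 pg of CA-acvr1b* mRNA, a constitutively active Nodal receptor, at the same stage. The reference condition was explants of uninjected embryos, cultured in the same way. Each condition was sampled at 7 stages. Blastula and early gastrula stages were sphere, 30% epiboly, 50% epiboly and shield, at 4, 4.7, 5.3 and 6 hpf. Later stages were 75% epiboly, 90% epiboly and 2-somite, at 8, 9 and 11 hpf. With 3 replicates, A to C, this makes 63 libraries in 21 groups. No strain or parentage is given, and an mRNA injected at the 1-cell stage is not confined to a cell type. The labels call the replicates biological, without saying whether those of one letter share a clutch.

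Noncanonical Wnt signalling orients and moves cells without acting through beta-catenin. Secreted Wnt5 and Wnt11 ligands bind Frizzled receptors and the co-receptor Ror2, with the heparan sulfate proteoglycan Gpc4 as a cofactor at the cell surface. Inside the cell, the membrane protein Vangl2 and its cytoplasmic partner Prickle form one side of the asymmetric planar polarity complex. In the zebrafish gastrula this machinery is known for convergence and extension, the narrowing and lengthening of the body axis: wnt5b, wnt11f2, gpc4 and vangl2 are the genes behind the pipetail, silberblick, knypek and trilobite mutants. Nodal signals induce mesoderm and endoderm.

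Library totals ran from 11756626 to 19650245 counts, with a median of 15620678. A level is given here as CPM, the count scaled to the library total, with SD over 3 libraries. A count of 0 allows up to 3 counts, which is 0.153 to 0.255 CPM depending on the library, and covers counting error only. Reads of the ndr2 gene, injected and endogenous together, ran from 7.30 to 72.3 CPM in the 21 ndr2 libraries. They ran from 1.08 to 57.6 CPM in the 21 CA-acvr1b* libraries, which received no ndr2 mRNA. In the 21 uninjected libraries they ran from 0 to 1.76 CPM. The receptor gene acvr1ba had medians of 358 CPM in ndr2, 375 CPM in CA-acvr1b* and 193 CPM in uninjected libraries. For acvr1bb the medians were 118, 101 and 92.6 CPM. Which acvr1b gene the injected mRNA derives from is not given in the sources used here. The axial mesoderm gene noto, a Nodal target, lay at 42.3 to 168 CPM in ndr2 libraries and 42.4 to 258 CPM in CA-acvr1b* libraries, against 0.267 to 30.1 CPM in uninjected libraries. For tbxta, checked in the same way, the ranges over the stages overlapped. They were 6.64 to 625 CPM in ndr2 and 20.1 to 592 CPM in CA-acvr1b* libraries, against 0 to 24.9 CPM in uninjected libraries.

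Log2 fold changes (ndr2 or CA-acvr1b* over uninjected, ndr2 over CA-acvr1b*, later over earlier stage) and adjusted p-values come from edgeR's quasi-likelihood test on all 63 libraries. P-values were adjusted by Benjamini-Hochberg over the 19069 genes tested in each contrast. A gene is called at an adjusted p under 0.05. Both injections are set against the same uninjected libraries, so their values are given side by side and their likeness is not counted as a second result.

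Among the ligands, the symbol wnt11f2 had no row. The row that the count table names wnt11 (ENSDARG00000004256) carries the name wnt11f2 in the gene name table and in RefSeq. It was listed at 0 in all 63 libraries. Another row, wnt11r (ENSDARG00000014796), is called wnt11 by RefSeq, and it was added by its identifier although the sought symbols do not include it. It held 572 counts over the 63 libraries and at most 45 in 1 library. The receptor gene fzd7a (ENSDARG00000060004) held 6 counts in all, in 4 libraries and never more than 3, so it was not tested.

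Rows at 0 were common. Of 25107 protein-coding rows, 2236 (8.91%) were at 0 in every library. Among them were pdha1a, ndufa12, atp6v1aa and dync1li2, genes of general cell functions picked after their values were seen, and gsc, a textbook Nodal target. Neighbouring genes in RefSeq order were mostly counted: of 20 neighbours, 2 were at 0 around the wnt11 row and 3 around fzd7a. Around wnt5b, whose reads were plentiful, 5 were at 0. There were 2 around each of ror2 and gpc4, 1 around fzd7b, and 0 around vangl2, prickle1b and wnt11r. prickle1a had 16 neighbours, with 0 of them at 0. The 3 around fzd7a, als2a, mpp4a and tmem237a, followed it directly. Directly after the wnt11 row, igbp1 held 4 counts and zgc:158432 held 0. Near gpc4, the successive rows ccdc160, cab39l1, phf6, hprt1 and pabir2 held 0, 1, 1, 0 and 1 counts over the 63 libraries. The reason for the rows at 0 was not tested, and wnt11f2 is given here only as listed at 0.

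wnt5b (ENSDARG00000102464), the remaining ligand, went from a few reads to a well measured transcript. In ndr2 explants its mean level was 0.476 CPM at sphere, 0.198 at 30% epiboly, 1.63 at 50% epiboly, 7.32 at shield, 52.5 at 75% epiboly, 33.6 at 90% epiboly and 75.0 at 2-somite. In CA-acvr1b* explants it was 0.652, 1.24, 7.21, 16.1, 37.5, 47.8 and 58.6 CPM over the same stages. In uninjected explants it was 0.385, 0.168, 2.95, 6.80, 12.9, 14.4 and 11.7 CPM. The transcript was well above the detection floor in all 3 conditions by shield. The CA-acvr1b* mean was already the highest at 30% epiboly, 50% epiboly and shield, while the ndr2 mean stood clear of the uninjected one from 75% epiboly on. In RNA of whole explants, here and for every gene that follows, more cells of a type and more RNA per cell cannot be told apart.

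At 2-somite, wnt5b stood at 86.5, 85.7 and 52.7 CPM in ndr2 explants and at 91.3, 35.5 and 49.1 CPM in CA-acvr1b* explants, against 10.2, 9.79 and 15 CPM in uninjected explants. Every injected library lay above every uninjected one. The log2 fold change was 2.71 for ndr2 (SE 0.58, adjusted p 0.000745) and 2.36 for CA-acvr1b* (SE 0.57, adjusted p 0.00376). Without CA-acvr1b* replicate A, the highest of its group, the CA-acvr1b* difference was 1.86 and not called (adjusted p 0.0616).

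The earlier wnt5b values were less firm. At 75% epiboly the ndr2 libraries held 54.7, 55.5 and 47.3 CPM and the CA-acvr1b* libraries 32.7, 38.9 and 40.7 CPM, against 7.91, 13.8 and 17.0 CPM in uninjected libraries. The libraries again did not overlap. The ndr2 difference of 2.06 (SE 0.57) was called at an adjusted p of 0.0426, and leaving out any 1 of the 6 libraries ended the call, with adjusted p-values up to 0.201. The CA-acvr1b* difference of 1.54 (SE 0.56) was not called (adjusted p 0.272), nor were those at 90% epiboly, 1.27 for ndr2 (adjusted p 0.275) and 1.75 for CA-acvr1b* (adjusted p 0.0984). With only the 6 libraries compared in the fit, both CA-acvr1b* differences were called (adjusted p 0.0161 at 75% and 0.00126 at 90% epiboly).

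One library stood apart at the start of this rise. Uninjected replicate A at 50% epiboly held 164 wnt5b counts, whereas replicates B and C held 5 and 3. CA-acvr1b* libraries at that stage held 150, 120 and 56 counts, and ndr2 libraries 19, 20 and 33. With replicate A, the CA-acvr1b* difference at 50% epiboly was 1.13 (adjusted p 0.751); without it, the difference was 4.77 and called (adjusted p 1.63e-05). The same library also held the highest prickle1a count of its group, 797 against 317 and 393. Its oddness was not limited to these genes: it detected 15746 genes, the fewest of all 63 libraries. Replicates B and C detected 19285 and 18700. CA-acvr1b* replicate B at shield came close to that lowest value, with 15972 genes. At 30% epiboly wnt5b had 22, 18 and 23 counts in CA-acvr1b* libraries against 2, 4 and 2 in uninjected libraries, which was not called (log2 2.78, SE 0.99, adjusted p 0.661).

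The stage steps place the wnt5b rise. From 30% to 50% epiboly it was called in ndr2 explants (3.09, adjusted p 0.0124), in CA-acvr1b* explants (2.72, adjusted p 0.00106) and in uninjected explants (4.37, adjusted p 0.000272). The uninjected step rested on that library and was 0.73 without it (adjusted p 0.716). Without it, the uninjected step from 50% epiboly to shield was 4.81 and called (adjusted p 4.03e-07). From shield to 75% epiboly only the ndr2 step was called, at 2.84 (SE 0.58, adjusted p 0.00022); whether that step differed between the conditions was not tested on its own. The ndr2 step from 30% to 50% epiboly lost its call without ndr2 replicate C of either stage. The ndr2 step from 50% epiboly to shield was 2.36 (SE 0.64, adjusted p 0.0126) and was lost without replicate B of 50% epiboly (adjusted p 0.0690).

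wnt11r was scarce throughout. Its highest group mean was 2.00 ± 0.547 CPM in ndr2 explants at 30% epiboly and its lowest 0.0818 ± 0.0836 CPM in uninjected explants at 90% epiboly. It was not called between any 2 conditions at any stage. From sphere to 30% epiboly it rose in ndr2 explants, with 45, 25 and 28 counts at 30% epiboly against 4, 0 and 2 at sphere (adjusted p 0.00568). In uninjected explants the step, with 40, 7 and 19 counts against 5, 0 and 1, was called (adjusted p 0.0188), but not without replicate A of 30% epiboly (adjusted p 0.134) or replicate B or C of sphere (adjusted p 0.102 and 0.103).

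**Figure D1:**
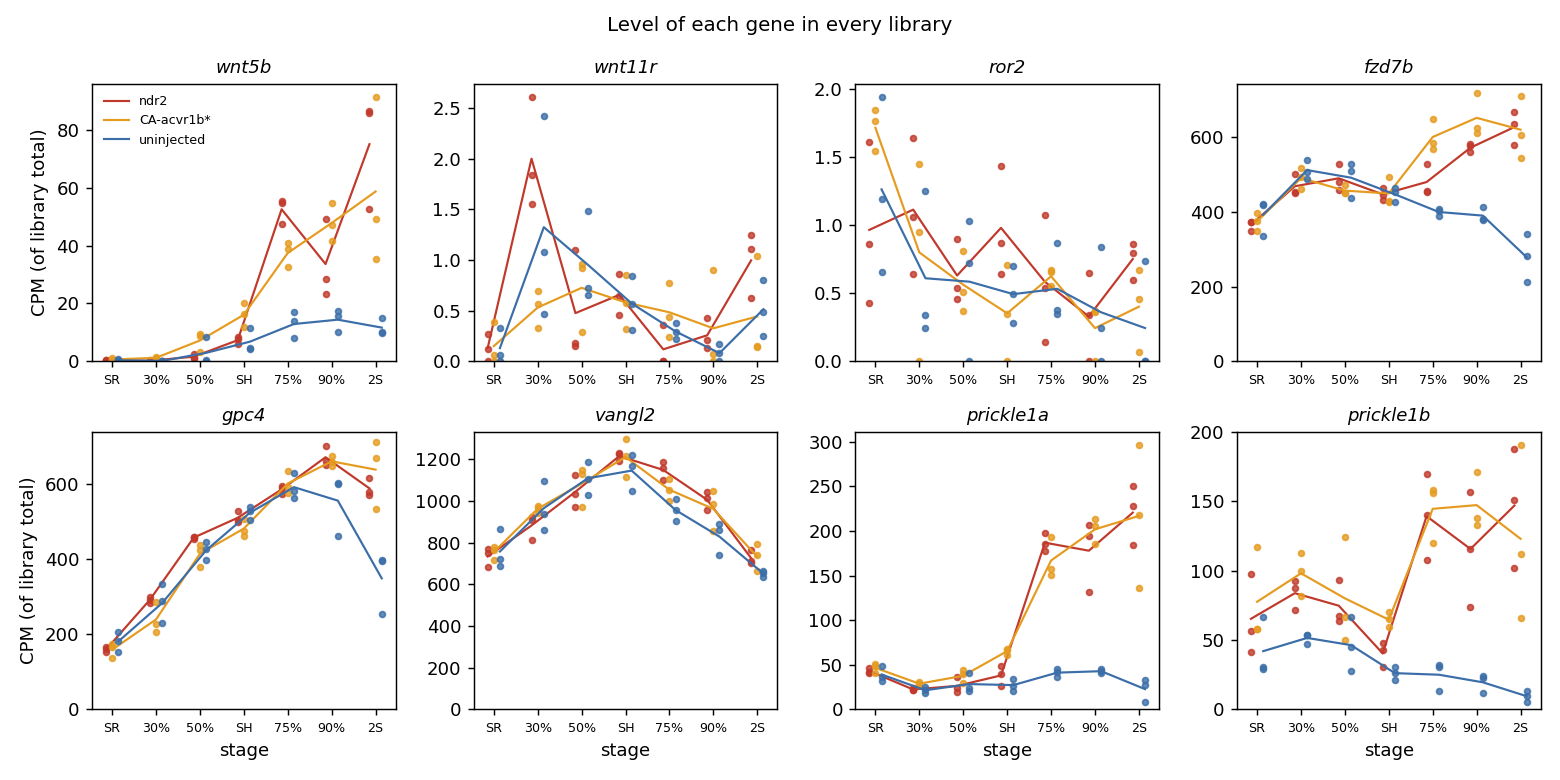
CPM of library totals of each gene (vertical axes, from 0) in every library at the 7 stages from sphere (SR) over 30%, 50%, shield (SH), 75% and 90% epiboly to 2-somite (2S), with points for libraries and lines through the group means of ndr2 (red), CA-acvr1b* (orange) and uninjected (blue) explants. Injected and uninjected libraries of prickle1a and prickle1b do not overlap from 75% epiboly on. The means of vangl2 rise to shield and then decline in all 3 conditions, and wnt11r and ror2 stay under 3 CPM.

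Among the receptors and cofactors, ror2 (ENSDARG00000076227), a receptor tyrosine kinase that binds Wnt5, was barely counted. It held 671 counts over all 63 libraries, at most 30 in one, and 0 in 8. Its highest mean was 1.71 ± 0.153 CPM in CA-acvr1b* explants at sphere, and it was not called in any comparison of conditions. At 2-somite its counts were 11, 10 and 15 in ndr2 libraries and 1, 8 and 9 in CA-acvr1b* libraries, against 0, 12 and 0 in uninjected libraries. Without uninjected replicate B, which leaves 2 uninjected libraries at 0, the ndr2 difference was called (adjusted p 0.0294). With it, the log2 difference was 1.59 with a 95% interval of -0.77 to 3.95, so these counts leave its direction undetermined.

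fzd7b (ENSDARG00000027589), a Frizzled receptor, changed by small and well measured steps. In ndr2 explants its means over the 7 stages were 366, 470, 490, 447, 481, 573 and 628 CPM. In CA-acvr1b* explants they were 375, 491, 458, 450, 601, 653 and 621 CPM, and in uninjected explants 393, 513, 492, 448, 400, 391 and 279 CPM. Up to shield the 3 courses ran together. After shield the group means were higher under both injections than at shield, and lower without them. Of the steps after shield, those called were the CA-acvr1b* rise from shield to 75% epiboly and the uninjected fall from 90% epiboly to 2-somite.

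At 75% epiboly fzd7b stood at 568, 650 and 586 CPM in CA-acvr1b* explants, against 389, 404 and 408 CPM in uninjected explants. The log2 fold change was 0.59 (SE 0.11, adjusted p 0.000474). The ndr2 libraries, at 455, 457 and 530 CPM, also lay above all uninjected ones, but that difference of 0.30 (SE 0.11) was not called (adjusted p 0.198). At 90% epiboly the differences were 0.59 for ndr2 (adjusted p 0.000558) and 0.76 for CA-acvr1b* (adjusted p 2.68e-06). At 2-somite the libraries held 637, 667 and 580 CPM in ndr2 explants and 710, 546 and 607 CPM in CA-acvr1b* explants, against 212, 283 and 342 CPM in uninjected explants. The gap between the groups was wider than the spread within either, and the log2 fold changes were 1.19 (SE 0.11, adjusted p 1.22e-11) and 1.17 (SE 0.11, adjusted p 2.2e-11).

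gpc4 (ENSDARG00000015472), the glypican cofactor, rose steeply in every condition before any difference was called. Its means from sphere to 2-somite were 159, 292, 458, 510, 586, 672 and 589 CPM in ndr2 explants. They were 159, 240, 415, 482, 602, 660 and 639 CPM in CA-acvr1b* explants and 181, 283, 424, 524, 592, 556 and 349 CPM in uninjected explants. At 90% epiboly all injected libraries lay above the uninjected ones, but neither difference was called. They held 651 to 702 CPM in ndr2 and 648 to 675 CPM in CA-acvr1b* explants, against 463 to 604 CPM in uninjected explants. The share of all genes whose libraries separate at that stage is not given here. The differences were called at the last stage. There the libraries held 578, 616 and 572 CPM in ndr2 explants and 711, 535 and 670 CPM in CA-acvr1b* explants, against 254, 394 and 399 CPM in uninjected explants. All 6 injected libraries exceeded all 3 uninjected ones. The log2 fold changes were 0.78 for ndr2 (SE 0.14, adjusted p 3.93e-05) and 0.89 for CA-acvr1b* (SE 0.14, adjusted p 3.39e-06), and neither injection was called earlier.

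The core component vangl2 (ENSDARG00000027397) moved with the stage and was not called between any conditions at any stage. Its means rose from sphere to shield and then declined, as 734, 883, 1045, 1216, 1150, 1006 and 726 CPM in ndr2 explants. CA-acvr1b* explants had 755, 963, 1084, 1211, 1055, 963 and 733 CPM, and uninjected explants 758, 966, 1110, 1146, 957, 829 and 652 CPM. At 2-somite the libraries held 763, 703 and 713 CPM in ndr2 explants and 739, 665 and 795 CPM in CA-acvr1b* explants, against 663, 657 and 636 CPM in uninjected explants. These ranges did not overlap. The differences were nonetheless small, 0.18 for ndr2 (95% interval -0.06 to 0.41, adjusted p 0.395) and 0.19 for CA-acvr1b* (-0.05 to 0.42, adjusted p 0.426). The largest vangl2 differences were those of ndr2, 0.30 at 75% epiboly (adjusted p 0.235) and 0.32 at 90% epiboly (adjusted p 0.16). The ndr2 libraries lay above the uninjected ones at both stages, while those of CA-acvr1b* overlapped them. At 75% epiboly ndr2 held 1099 to 1190 CPM against 903 to 1009 CPM, and at 90% epiboly 959 to 1043 against 739 to 890 CPM.

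prickle1a (ENSDARG00000040649) and prickle1b (ENSDARG00000045694), the cytoplasmic partners of Vangl2, had the largest differences of the set. The 2 paralogs took different courses. In uninjected explants the group means of prickle1a lay between 21.5 and 42.9 CPM over the 7 stages, with single libraries from 7.87 to 48.9 CPM, whereas prickle1b declined from 51.6 ± 3.62 CPM at 30% epiboly over 26.2 ± 4.65 CPM at shield to 9.57 ± 4.16 CPM at 2-somite. Under both injections each was several times higher from 75% epiboly on. How reads shared between paralogs were counted is not given in the sources used here.

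With all libraries in the edgeR fit, prickle1a alone was called before 75% epiboly. At shield it stood at 61.5, 67.9 and 66.8 CPM in CA-acvr1b* explants, against 34.4, 21.1 and 26.4 CPM in uninjected explants, with no overlap. The log2 fold change of 1.24 (SE 0.30) was called at an adjusted p of 0.0329 and was lost without any CA-acvr1b* replicate, or without uninjected replicate B or C (adjusted p up to 0.207). It was also lost without the filter on low counts (adjusted p 0.0600) and with a replicate block within stage (adjusted p 0.179). Of the CA-acvr1b* libraries at shield, replicate B detected 15972 genes, against 19375 in replicate A and 18686 in replicate C. The ndr2 libraries at shield, at 26.3, 48.3 and 39.8 CPM, overlapped the uninjected ones (0.49, adjusted p 0.544). Between shield and 75% epiboly prickle1a rose by 2.29 in ndr2 explants (SE 0.30, adjusted p 1.11e-07) and by 1.34 in CA-acvr1b* explants (SE 0.30, adjusted p 0.000595). No such step was called in uninjected explants.

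At 75% epiboly prickle1a held 178, 198 and 185 CPM in ndr2 explants and 157, 151 and 193 CPM in CA-acvr1b* explants, against 45.4, 36.6 and 41.8 CPM in uninjected explants. All injected libraries lay more than 100 CPM above the uninjected ones. The log2 fold changes were 2.22 (SE 0.30, adjusted p 2.36e-06) and 2.02 (SE 0.30, adjusted p 9.53e-06), with 2.10 and 2.26 at 90% epiboly (adjusted p 6.54e-06 and 6.52e-07). At 2-somite the values were 228, 250 and 184 CPM in ndr2 explants and 297, 136 and 218 CPM in CA-acvr1b* explants, against 7.87, 27.7 and 32.8 CPM in uninjected explants. The CA-acvr1b* libraries spread by more than a factor of 2 and still did not reach the uninjected range. The log2 fold changes were 3.30 (9.82-fold, SE 0.32, adjusted p 7.07e-11) and 3.27 (9.66-fold, SE 0.32, adjusted p 9.38e-11). Uninjected replicate A, at 7.87 CPM, was far below its partners and was also the lowest of its group for prickle1b, fzd7b and gpc4. All 4 genes stayed called under both injections in each of the 13 alternatives run at that stage, leaving out this library included, with prickle1a between 2.88 and 3.66.

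prickle1b showed the widest separation. At 75% epiboly it held 170, 108 and 140 CPM in ndr2 explants and 156, 120 and 158 CPM in CA-acvr1b* explants, against 13.0, 30.4 and 31.7 CPM in uninjected explants. The lowest injected library exceeded the highest uninjected one by a factor of more than 3. The log2 fold changes were 2.50 (SE 0.40, adjusted p 5.86e-05) and 2.53 (SE 0.40, adjusted p 3.56e-05), and at 90% epiboly 2.60 and 2.93 (adjusted p 3.35e-05 and 1.68e-06). At 2-somite it held 151, 188 and 102 CPM in ndr2 explants and 191, 66.1 and 112 CPM in CA-acvr1b* explants, against 5.33, 9.73 and 13.6 CPM in uninjected explants. No library of one kind came near the other. The log2 fold changes were 3.97 (15.6-fold, SE 0.43, adjusted p 2.42e-09) and 3.71 (13.1-fold, SE 0.43, adjusted p 9.56e-09). Before 75% epiboly its differences were 0.62 to 0.65 for ndr2 and 0.74 to 1.30 for CA-acvr1b*, all positive and none called by edgeR. At shield the 59.2 to 69.9 CPM of CA-acvr1b* libraries did not overlap the 21.4 to 30.7 CPM of uninjected libraries. That difference had an adjusted p of 0.176 by edgeR, and was called by DESeq2 (adjusted p 0.0484) and by edgeR with only the 6 libraries compared (adjusted p 0.000623).

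**Figure D2:**
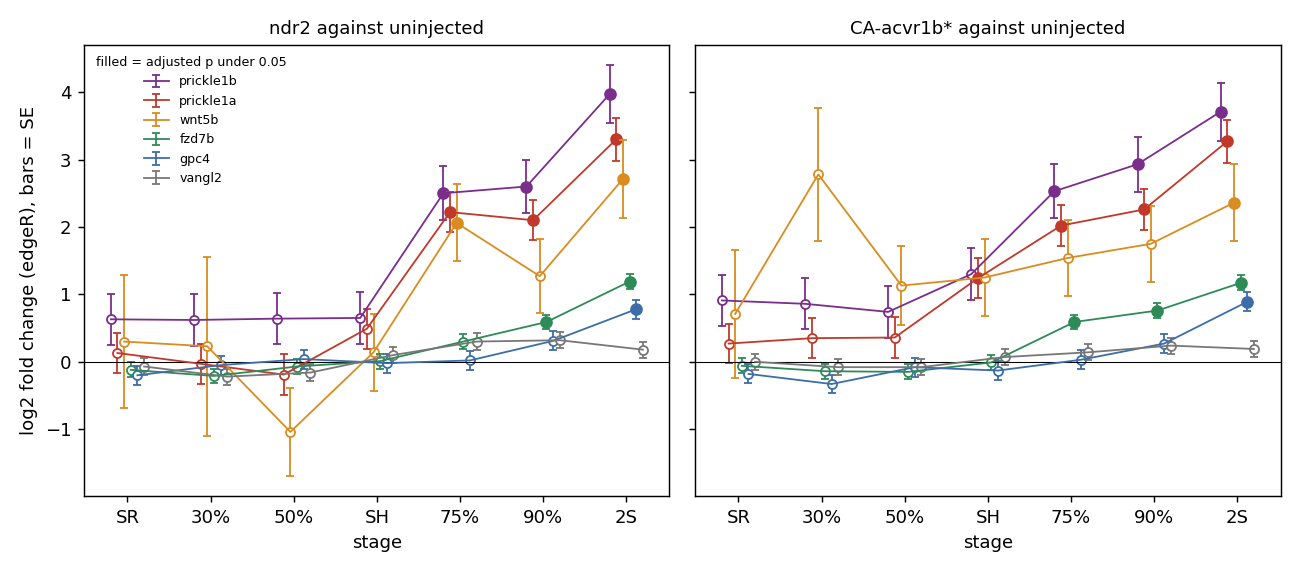
Log2 fold changes from edgeR (vertical axis) with SE bars by stage, for ndr2 against uninjected explants on the left and CA-acvr1b* against uninjected explants on the right, with filled points for adjusted p under 0.05. The differences of prickle1b and prickle1a are called from 75% epiboly on in both panels and reach 3.97 and 3.30 in ndr2 explants at 2-somite.

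Counted together, the 7 tested members gave 11 calls in 49 tests for ndr2 and 12 calls in 49 tests for CA-acvr1b*, and every call was higher in injected explants. Over all genes and stages 1.59% of tests were called higher for ndr2 and 1.50% for CA-acvr1b*. At sphere, 30% epiboly and 50% epiboly no member was called under either injection, where 0.236%, 0.225% and 1.46% of all genes were called in either direction for ndr2 and 0.0420%, 0.173% and 0.357% for CA-acvr1b*. At shield there were 0 calls for ndr2 (1.07% of all genes called) and 1 for CA-acvr1b* (0.409% of all genes higher). At 75% epiboly there were 3 for each (0.991% and 1.22% of all genes higher), and at 90% epiboly 3 for each (1.42% and 1.93%). At 2-somite there were 5 for each (7.40% and 6.46%). At unadjusted p under 0.05, 16 and 21 of the 49 tests passed. The share of all genes at that threshold is not given here, so nothing is read from these counts. The median log2 fold change of the 7 at 2-somite was 1.59 for ndr2 and 1.17 for CA-acvr1b*, where the median over all genes was 0.00 for both. The ndr2 median is the value of ror2, which was not called and whose direction its counts leave undetermined. The members were chosen with earlier results of these data known, so their counts beside the shares of all genes are a description.

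**Figure D3:**
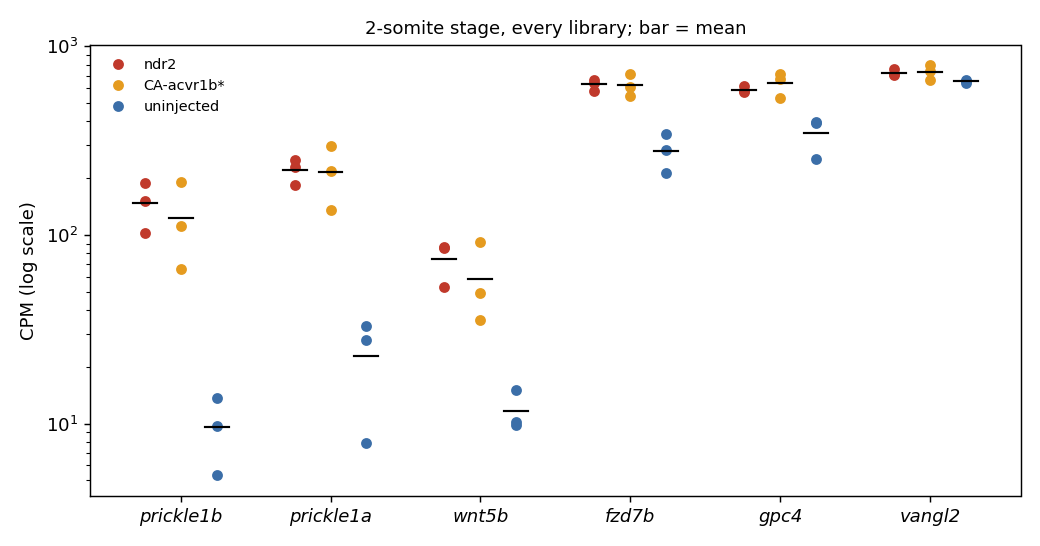
CPM of library totals on a log axis at 2-somite in each library of ndr2 (red), CA-acvr1b* (orange) and uninjected (blue) explants, with black bars at the means of 3 libraries. Injected libraries lie above all uninjected libraries for each of the 6 genes shown, by the widest margin for prickle1b. The margin is narrowest for vangl2, whose difference was not called. The tested member ror2 is not shown, and its libraries overlapped. The share of all genes whose libraries separate in this way is not given here.

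Averaged over the 7 stages with equal weights, 3 members were higher in ndr2 than in uninjected explants, where 7.71% of all genes were higher. These were fzd7b by 0.24 (SE 0.04, adjusted p 2.37e-05), prickle1a by 1.14 (SE 0.11, adjusted p 1.03e-10) and prickle1b by 1.66 (SE 0.15, adjusted p 1.03e-11). For CA-acvr1b* 4 members were higher, where 3.90% of all genes were: wnt5b by 1.65 (SE 0.27, adjusted p 1.65e-05), fzd7b by 0.31 (adjusted p 1.9e-07), prickle1a by 1.39 (adjusted p 1.5e-13) and prickle1b by 1.86 (adjusted p 2.08e-13). The ndr2 average of wnt5b, 0.81, missed the threshold (adjusted p 0.0607) and depended on the setting. It was called by DESeq2 (0.79, adjusted p 0.0192), with library totals alone (adjusted p 0.0487), with a replicate block within stage (adjusted p 0.0411) and without replicate A (1.09, adjusted p 0.0198). With the 7 stages of a letter added into 1 sample it was 1.79 and called (adjusted p 1.78e-05). The fzd7b average under ndr2 was 0.10 and not called without the 2-somite stage (adjusted p 0.0523).

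The size of the difference changed with stage for most members, by a joint test of whether the 7 stage differences are equal. For ndr2 the test was passed by 5 members (5.32% of all genes): fzd7b (adjusted p 3.64e-09), prickle1a (8.58e-09), prickle1b (1.18e-05), gpc4 (0.00624) and wnt5b (0.0361). For CA-acvr1b* it was passed by 4 (3.43% of all genes): fzd7b (9.65e-10), prickle1a (5.98e-07), gpc4 (0.000153) and prickle1b (0.000168). gpc4 rested on the last stage, and without 2-somite its adjusted p was 0.763 for ndr2 and 0.936 for CA-acvr1b*. It was also lost without replicate A under either injection, and without replicate B for ndr2. The wnt5b result was lost without replicate A (0.0621), without replicate B (0.515) and without 2-somite (0.465). The prickle1b result for CA-acvr1b* was just lost without replicate C (0.0535).

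The ligand and the receptor form were also set against each other. No member was called between ndr2 and CA-acvr1b* explants at any of the 7 stages by edgeR or by DESeq2, where 0.315% of all gene-by-stage tests were called. An unadjusted p under 0.05 was found in 5 of the 49 member tests, with no share of all genes to set beside it. At 2-somite the ndr2 minus CA-acvr1b* differences had 95% intervals of -0.20 to 0.24 for fzd7b, -0.39 to 0.16 for gpc4, -0.25 to 0.23 for vangl2, -0.56 to 0.60 for prickle1a, -0.50 to 1.01 for prickle1b and -0.73 to 1.44 for wnt5b. The wnt5b libraries at 50% epiboly, at 1.14, 1.30 and 2.46 CPM in ndr2 explants against 9.60, 8.80 and 3.23 CPM in CA-acvr1b* explants, did not overlap. That difference of -2.18 (SE 0.64) was not called (adjusted p 0.102), though it was without CA-acvr1b* replicate C (adjusted p 0.0488). On average over stages wnt5b was lower in ndr2 explants by a called -0.84 (SE 0.26, adjusted p 0.0355), where 5.56% of all genes were lower. The stages did not all go this way. The ndr2 mean was the higher at 75% epiboly (52.5 against 37.5 CPM) and at 2-somite (75.0 against 58.6 CPM). It was the lower at the other stages, among them 30% epiboly with few reads (0.198 against 1.24 CPM). Without replicate B the average difference was -0.80 and not called (adjusted p 0.303). With the 7 stages of a replicate letter added into 1 sample it was 0.05 and not called (adjusted p 0.936). The dependence of the ndr2 and CA-acvr1b* difference on stage was called for 0 of 7 members (0.110% of all genes). An unadjusted p under 0.05 was found for 1 of 7, again without a share of all genes.

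Over time gpc4, fzd7b and vangl2 rose early in all 3 conditions. The share of all genes called in each of these early steps is not given here, so the rises are a description. From sphere to 30% epiboly gpc4, fzd7b and vangl2 rose in ndr2 explants by 1.02, 0.50 and 0.41, in CA-acvr1b* explants by 0.71, 0.51 and 0.47, and in uninjected explants by 0.86, 0.59 and 0.55, each with an adjusted p of 0.00553 or lower. From 30% to 50% epiboly gpc4 rose again, by 0.83 in ndr2, 0.99 in CA-acvr1b* and 0.74 in uninjected explants. vangl2 rose by 0.42, 0.37 and 0.37 in the same step. Scaling to library totals alone moves the median of all genes in that step to -0.26, -0.22 and -0.27, and the CA-acvr1b* and uninjected vangl2 rises were then 0.17 and 0.20 and not called. The uninjected one also lost its call without replicate A of 50% epiboly, without replicate B of 30% epiboly or without replicate C of 30% epiboly, and the CA-acvr1b* one without replicate B of 50% epiboly.

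In the last step, from 90% epiboly to 2-somite, the calls were falls; whether the step differed between conditions was not tested on its own. In ndr2 explants vangl2 alone was called, at -0.56 (adjusted p 0.000867; 4.49% of all genes fell), and in CA-acvr1b* explants vangl2 alone, at -0.47 (adjusted p 0.00951; 2.91%). In uninjected explants 4 members fell (6.29% of all genes fell): fzd7b by -0.55 (adjusted p 0.000518), gpc4 by -0.74 (adjusted p 0.00019), vangl2 by -0.42 (adjusted p 0.0133) and prickle1a by -0.98 (adjusted p 0.0272). The prickle1a fall was -0.58 and not called without uninjected replicate A of 2-somite (adjusted p 0.288), and was also lost without replicate B or C of 90% epiboly (adjusted p 0.0745 and 0.0932). The uninjected prickle1b value of -1.10 was not called by edgeR (adjusted p 0.0753), but was by DESeq2 (-1.07, adjusted p 0.0324) and by edgeR without replicate C of 2-somite (adjusted p 0.0376) or replicate A of 90% epiboly (adjusted p 0.0229). The vangl2 falls in CA-acvr1b* and uninjected explants each lost their call when one of several libraries was left out, with log2 values between -0.38 and -0.45.

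In all, the 6 consecutive steps gave 13 member calls of 42 in ndr2 explants (11 higher), 11 in CA-acvr1b* explants (10 higher) and 11 in uninjected explants (7 higher). Of all gene-by-step tests 16.6%, 15.8% and 16.0% were called, and 8.89%, 8.33% and 8.03% were called higher. With library totals alone the uninjected calls split into 5 higher and 6 lower. From 75% to 90% epiboly no member was called in any condition, and that step called 0.0682%, 0.131% and 0% of all genes in ndr2, CA-acvr1b* and uninjected explants. From shield to 75% epiboly prickle1b rose by 1.78 in ndr2 explants (adjusted p 0.000471) and by 1.14 in CA-acvr1b* explants (adjusted p 0.0247). The CA-acvr1b* rise was lost without any 1 library of the step other than replicate B of 75% epiboly. fzd7b rose by 0.41 in CA-acvr1b* explants (adjusted p 0.00513). Further calls near the threshold were gpc4 from 50% epiboly to shield in uninjected explants (0.39, adjusted p 0.0388), prickle1a over that step in CA-acvr1b* explants (0.91, adjusted p 0.0496), vangl2 over that step in ndr2 explants (0.39, adjusted p 0.0218) and prickle1a from sphere to 30% epiboly in ndr2 explants (-0.81, adjusted p 0.0341). Each of these 4 was lost when 1 of several libraries was left out. With library totals alone the vangl2 step was 0.22 (adjusted p 0.0989), the gpc4 step 0.31 (adjusted p 0.0733) and the CA-acvr1b* prickle1a step 0.79 (adjusted p 0.0624).

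Ranked over all 21 groups by their means, the members did not all peak in the same group. wnt5b peaked in ndr2 explants at 2-somite (75.0 ± 19.3 CPM) and was lowest in uninjected explants at 30% epiboly (0.168 ± 0.0879 CPM). prickle1a peaked in the same group (221 ± 33.7 CPM), with 21.5 ± 3.52 CPM in uninjected explants at 30% epiboly as its lowest. prickle1b and fzd7b peaked in CA-acvr1b* explants at 90% epiboly (147 ± 20.4 and 653 ± 58.0 CPM) and were lowest in uninjected explants at 2-somite (9.57 ± 4.16 and 279 ± 65.2 CPM). Their peaks overlapped the next groups, ndr2 explants at 2-somite, at 147 ± 43.2 CPM for prickle1b and 628 ± 44.2 CPM for fzd7b. gpc4 peaked in ndr2 explants at 90% epiboly (672 ± 26.8 CPM) and vangl2 in ndr2 explants at shield (1216 ± 20.7 CPM). For wnt5b, prickle1a, gpc4 and vangl2 too, the libraries of the highest group overlapped those of the next. Which group was highest is therefore not established for any of these members.

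Few neighbours in these orders were apart. Of 20 adjacent pairs of groups, the libraries of 3 did not overlap for wnt5b, 3 for fzd7b, 2 for gpc4, 2 for prickle1a, 1 for prickle1b, 1 for vangl2 and 0 for ror2. For prickle1a the gap lay between CA-acvr1b* at 75% epiboly and CA-acvr1b* at shield, with a second between CA-acvr1b* at shield and CA-acvr1b* at sphere. For prickle1b the gap lay between CA-acvr1b* at shield and uninjected at 30% epiboly, and for vangl2 between ndr2 and uninjected at 2-somite. For fzd7b, ndr2 at sphere stood clear of uninjected at 2-somite, the last of the order.

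The genes whose course was most like each member's were found by Pearson's r over the 21 group means, on the log2(mean CPM + 0.5) scale, among genes averaging 5 CPM or more. These groups share stages and libraries, so r is only a description. wnt5b was most like cdx4 (r = 0.982), a caudal homeobox gene of the tail end, NAV1 (1 of many) (0.975) and kif26ab (0.971). prickle1b was most like noto (0.954), the notochord homeobox gene, then admp (0.925) and foxd3 (0.906). prickle1a was most like her3 (0.960), nkx1.2la (0.951) and greb1 (0.948). fzd7b was most like znfl1 (0.916), tpbga (0.893) and nkx6.1 (0.891). gpc4 went with seta (0.982), ptbp2b (0.982) and tsr1 (0.981), and vangl2 with acin1b (0.983), smg5 (0.979) and si:ch1073-357b18.4 (0.974). For the scarce ror2 the best values were lower, with srfbp1 at 0.879, GDPGP1 at 0.876 and senp5 at 0.875, and for wnt11r lower still, with paics at 0.803, rwdd1 at 0.802 and nup54 at 0.787. Between members r was 0.85 for wnt5b and gpc4, 0.81 for wnt5b and prickle1a, 0.80 for fzd7b and prickle1b, 0.67 for the 2 prickle1 paralogs and -0.03 for vangl2 and prickle1a.

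A wider list of 67 other symbols of planar polarity and noncanonical Wnt signalling was read beside the members. It was chosen with earlier results of these data known, so its counts beside the shares of all genes are a description. ptk7b had no row, and papc, an older name of pcdh8 in RefSeq, was met by the pcdh8 row. The 65 symbols found filled 67 rows, and 62 rows were tested. At 2-somite 17 of the 62 were called for ndr2, 13 higher and 4 lower (27.4%, against 12.2% of all genes). For CA-acvr1b* 13 were called, 10 higher and 3 lower, against 9.14% of all genes. The median log2 fold change of the list was 0.00 for ndr2 and -0.01 for CA-acvr1b*, as for all genes. At 90% epiboly 6 were called for ndr2 and 7 for CA-acvr1b*, against 2.60% and 2.49% of all genes in either direction. At 75% epiboly 2 and 3 were called, against 1.81% and 1.62%, and at shield 4 and 1, against 1.07% and 0.472%.

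The protocadherin gene pcdh8, a paraxial protocadherin linked to cell movement in the gastrula, was the list's most persistent riser, called higher at 5 stages for ndr2 and at 6 for CA-acvr1b*. At 75% epiboly it averaged 146 ± 29.2 CPM in ndr2 and 223 ± 62.1 CPM in CA-acvr1b* explants, against 4.50 ± 4.38 CPM in uninjected explants. It came up sooner in CA-acvr1b* explants: at 50% epiboly it was at 5.62 ± 5.11 CPM in ndr2 and 55.4 ± 31.1 CPM in CA-acvr1b* explants, a called log2 difference of -3.35 between them (SE 0.73, adjusted p 0.0148). The scaffold gene magi1b was higher at 4 stages for ndr2, by 0.51 to 0.71. For CA-acvr1b* it was called higher on average over stages, by 0.33, but at no single stage. The kinase gene rock2a was lower at 3 stages for ndr2, by -0.43 to -0.52. dvl2, which encodes the signal transducer Dishevelled, was lower at 3 stages for CA-acvr1b*, by -0.33 to -0.49, and at 2 for ndr2, by -0.42 and -0.43. The Src-family kinase gene yes1 was higher at 3 stages for CA-acvr1b*, by 0.37 to 0.44, and at 1 for ndr2, by 0.29.

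At 2-somite 4 further genes of the list were chosen after their values were seen. The receptor gene fzd10 averaged 43.1 ± 15.4 CPM in ndr2 and 21.4 ± 9.88 CPM in CA-acvr1b* explants, against 1.09 ± 1.12 CPM in uninjected explants (log2 5.31 and 4.30). celsr1b, a cadherin of the polarity complex, averaged 140 ± 33.5 and 109 ± 29.0 CPM under the injections, against 12.5 ± 1.80 CPM in uninjected explants (3.50 and 3.14). The prickle paralog prickle2b averaged 38.5 ± 3.95 and 45.7 ± 19.4 CPM, against 12.1 ± 4.07 CPM (1.69 and 1.94). The proteoglycan gene sdc4 was lower, at 243 ± 56.2 and 305 ± 126 CPM, against 777 ± 45.7 CPM (-1.64 and -1.35). All 4 were called under both injections, while vangl1, the paralog of vangl2, was not called for ndr2 (-0.81, SE 1.08) or CA-acvr1b* (-0.70, SE 1.09). Other rows were also called under both, among them rspo3 (1.78 and 2.33), celsr1a (1.41 and 1.42) and ror1 (1.37 and 1.19). csnk1e (2.86) and dvl3b (2.03) were called for ndr2 and not for CA-acvr1b*.

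**Figure D4:**
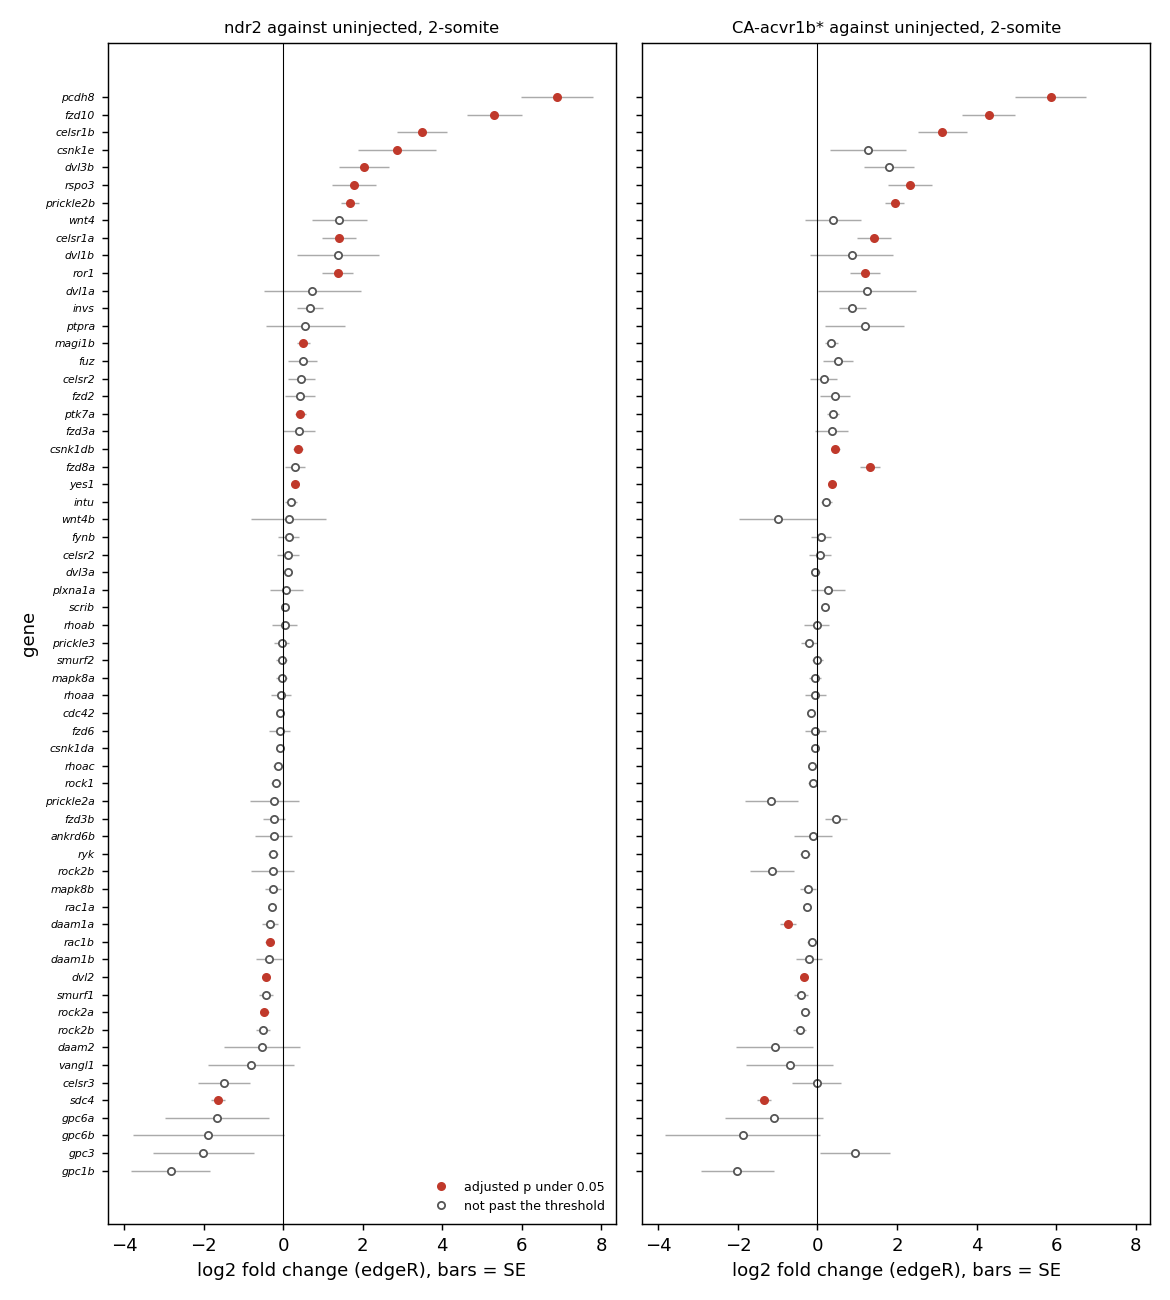
Log2 fold changes from edgeR (horizontal axis) with SE bars at 2-somite for the 62 tested rows of the wider list, ordered by the ndr2 value, for ndr2 against uninjected on the left and CA-acvr1b* against uninjected on the right, with red points for adjusted p under 0.05. pcdh8, fzd10 and celsr1b lead both panels, sdc4 is lower in both, and most rows lie near 0.

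The members' differences ran beside large differences in marker genes of whole tissues. The marker lists were also chosen with earlier results of these data known, so their counts are a description. At 2-somite, where 7.40% of all genes were called higher for ndr2 and 6.46% for CA-acvr1b*, 8 of 9 tested axial mesoderm genes were higher for each injection, and their summed level was 1671 to 2435 CPM in ndr2 and 1334 to 3286 CPM in CA-acvr1b* explants, against 151 to 195 CPM in uninjected explants. Of 10 tested paraxial and ventrolateral mesoderm genes, 9 were higher for ndr2 and 8 for CA-acvr1b*, with sums of 525 to 1296 and 214 to 821 CPM, against 8.87 to 37.7 CPM. All 9 tested neuroectoderm genes were higher for both, with sums of 1530 to 1753 and 1267 to 2116 CPM, against 139 to 236 CPM. Epidermis genes were lower, 5 of 7 for ndr2 and 6 of 7 for CA-acvr1b* (4.84% and 2.68% of all genes were lower), with sums of 2695 to 3462 and 895 to 4551 CPM, against 9894 to 10246 CPM. At 75% epiboly, where 0.991% and 1.22% of all genes were higher, 7 of 9 axial genes for ndr2 and 8 of 9 for CA-acvr1b* already were. Of the neuroectoderm genes, 1 of 9 and 2 of 9 were.

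Endoderm genes went both ways, and their sums overlapped at 2-somite, at 198 to 282 CPM in ndr2 and 255 to 513 CPM in CA-acvr1b* explants, against 207 to 310 CPM in uninjected explants. Of 7 endoderm genes, 3 were higher and 2 lower for ndr2, with a median log2 fold change of 0.03, and 4 higher and 1 lower for CA-acvr1b*, with a median of 2.70. At 50% epiboly 6 of 7 were already higher for CA-acvr1b* and 1 of 7 for ndr2 (0.357% and 1.46% of all genes called in either direction). None of the 8 genes of the enveloping layer, the outer covering of the embryo, was called for either injection at 2-somite, and their sums were 19259 to 24356 and 22005 to 22667 CPM, against 23731 to 32974 CPM. The lists are not fully separate: gata6 is in both the yolk syncytial and endoderm lists, and foxa2 in both the axial mesoderm and endoderm lists. Genes of the yolk syncytial layer, which explants should lack, summed at 2-somite to at most 7.68 CPM in ndr2 and 6.51 CPM in CA-acvr1b* explants, against at most 20.7 CPM in uninjected explants. Over the 7 stages the highest library sums were 14.9 CPM in ndr2 explants at 90% epiboly and 24.8 CPM in CA-acvr1b* explants at 50% epiboly, against 88.1 CPM in uninjected explants at 75% epiboly. The part of tissue composition in the members' differences was not tested.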

How the data were processed

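RNA-seq read counts per gene were deposited by the authors in a single table covering 32057 genes and 63 libraries. Per the submitters' processing notes, Trim Galore, STAR and featureCounts were used with danRer11/GRCz11; versions, strand setting and the treatment of shared reads are not given in the sources used here. The counts are whole numbers with unequal totals and were used without scaling.

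Tests used edgeR (version 4.0.16; R 4.3.3, data.table, version 1.17.8). The filter filterByExpr, with a minimum count of 10 and a minimum total of 15, kept 19069 genes that hold 99.969% of counts. The fit used TMM factors, robust glmQLFit and glmQLFTest with a mean per group (42 residual degrees of freedom, prior count 0.125) and Benjamini-Hochberg adjustment. The common biological coefficient of variation was 0.309. TMM factors averaged 1.24 at sphere and 0.899 at shield, so CPM of library totals and fold changes can differ between stages; of 210 group levels, 50 moved by over 1 SD with TMM scaling. Contrasts were pairs of conditions at each stage, their equal-weight average, a joint test of dependence on stage, and consecutive stages. The script was tested on simulated data. The lowest chi-square per degree of freedom between replicates of a group was 5.33, so no library was counted as a copy of another.

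Alternatives were DESeq2 1.42.0, other size factors, no filter, a replicate block, fewer libraries, left-out libraries or stages, and summed series. Fits that left out 1 library kept the genes and the dispersion trend of the full fit and re-estimated the rest. Where a group kept 2 libraries, their spread was taken from all groups. The gene name table matched 28988 of 32057 identifiers; RefSeq GRCz12tu served only for names and neighbours. Every member is named, with per-library values at the stage of its largest called difference; like genes are the top 3 by r, and wider-list genes are named when called one way at 3 or more stages. The members and lists were chosen with earlier results of these data known. No sequences are shown.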

Additional observations from a re-analysis of the deposited data

Results flagged for a closer look

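The difference between injected and uninjected explants itself differed between stages for several members, by the joint test of the 7 stage differences (edgeR, adjusted p). For ndr2 these were wnt5b (0.0361), fzd7b (3.64e-09), gpc4 (0.00624), prickle1a (8.58e-09) and prickle1b (1.18e-05). For CA-acvr1b* they were fzd7b (9.65e-10), gpc4 (0.000153), prickle1a (5.98e-07) and prickle1b (0.000168). In each case the difference was larger at 2-somite than at sphere: for prickle1b 3.97 against 0.63 under ndr2 and 3.71 against 0.91 under CA-acvr1b*, for fzd7b 1.19 against -0.12 and 1.17 against -0.06.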

How the results depend on the processing

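The calls at single stages numbered 10 to 12 for ndr2 and 11 to 13 for CA-acvr1b* when 1 library was left out, 11 and 13 with DESeq2, and 11 and 15 with only the 6 libraries compared, all higher in injected explants. Without uninjected replicate A of 50% epiboly they were 11 and 13. The calls of ndr2 against CA-acvr1b* numbered 0 to 1 when 1 library was left out. Members higher on average for ndr2 numbered 5 with library totals alone, against 3. Members called on average between ndr2 and CA-acvr1b* numbered 0 without the filter, 0 with the replicate block within stage, 0 when the stages of a letter were summed, 2 without 2-somite and 0 to 1 when a letter was left out. The result for wnt5b, ndr2 against CA-acvr1b*, average of the stages, was 0.0457 and not called with summed counts, against -0.84. Summed counts weight a stage by its counts, while the average weights the stages equally. The cause of the change was not tested. Members whose ndr2 difference depended on stage numbered 3 without 2-somite and 3 to 5 when a letter was left out. Deviations of same-letter libraries correlated weakly (63 correlations from -0.22 to 0.19, 3 over 0.1). With 3 libraries in a group, this cannot tell whether a letter marks a shared clutch. With the replicate block the stage calls were 10, 12 and 0, and the ndr2 dependence on stage held for 4. With the block within stage, the ndr2 dependence of wnt5b on stage was not called (edgeR, adjusted p 0.263, against 0.0361). Low counts limit wnt11r, ror2 and wnt5b before 50% epiboly.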
